A study of Mus musculus with 4 samples.

Results

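*Ezr*, *Msn*, *Rdx* and *Nf2* encode ezrin, moesin, radixin and merlin, a family of proteins that link the plasma membrane to the cortical actin cytoskeleton. The 4 genes were taken by symbol from the deposited table of hair follicle stem cells (HF-SCs), with the requirement of a mean above 0, and all 4 were found among 24421 genes, of which 17044 had a mean above 0. The table came from bulk RNA-seq of HF-SCs from mice in which *miR-205* was induced for 2 d (2 libraries) and from control mice (2 libraries). Both groups were gender-matched C57BL/6 mice by their labels, at postnatal day 44, with a *K14-H2BGFP* allele that lights up keratin 14 cells. The induced mice carried a *pTRE2-miR-205* transgene, which was injected into FVB mice and is switched on by doxycycline through a *Krt14*-rtTA driver, so that induction is limited to keratin 14 cells of the skin. They ate doxycycline chow from postnatal day 42. The labels call the control mice untreated, while the methods feed doxycycline to both groups, and which of the alleles the controls lacked is not given in the sources used here. The sort took live back skin cells that were high in H2BGFP, α6 integrin and CD34 and lacked Sca1, and the number of mice behind each library is not given in the sources used here.

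The only measurement used here is the authors' mean normalized count of each gene, which pools the 4 libraries, control and induced together. It carries no value for a single library, so no difference between induced and control HF-SCs is given for any gene, and no spread between libraries stands behind any value.

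Ezrin, radixin and moesin share an N-terminal FERM domain that binds the tails of membrane proteins and PIP2, and a C-terminal region that binds filamentous actin. In the resting protein the ends bind each other, and phosphorylation of a threonine near the C terminus holds the protein open. Merlin has the FERM domain but lacks the C-terminal actin-binding site of its relatives, acts as a tumor suppressor, and feeds into the Hippo pathway that restrains YAP. Ezrin is known as the epithelial member, moesin as the member of leukocytes and endothelium, and radixin is prominent in liver.

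The places of the genes are given on NCBIM37 with GENCODE vM1, since the genome used here is not of the mm10 build that the labels name. *Ezr* (ENSMUSG00000052397.8) spans chr17:6942390-6987133 on the minus strand, with 13 exons in its reference transcript. *Msn* (ENSMUSG00000031207.10) spans chrX:93291381-93363891 on the plus strand, also with 13 exons. *Rdx* (ENSMUSG00000032050.9) spans chr9:51855255-51896842 on the plus strand with 14 exons, and *Nf2* (ENSMUSG00000009073.9) spans chr11:4665848-4749539 on the minus strand with 16. *Nf2* had the most annotated transcripts, 16, against 4 for *Rdx*, 3 for *Msn* and 2 for *Ezr*.

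The miRNA induced in these mice is shown first, because its letters set what was searched in the 4 genes. The sequence is from RefSeq (GRCm38.p6, chr1:193507503-193507524, minus strand), 5′ to 3′, and the capitals mark its seed, bases 2 to 8.
mmu-miR-205-5p: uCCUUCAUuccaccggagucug

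The DNA word that pairs with this seed is ATGAAGG, searched on the transcript strand of GENCODE vM1. Of 19915 genes with an annotated 3′UTR, 10.4% held it in the longest one. *Ezr* held 1 match in its 3′UTR of 1262 bases, in exon 13 of 13, at bases 368 to 374 of the 3′UTR. Among 2984 genes whose 3′UTR was 0.8 to 1.25 times as long, 10.6% held a match. The *Ezr* match was followed by an A, a longer word that 3.73% of all longest 3′UTRs held. The match and its flanks lie at NCBIM37 chr17:6943267-6943292, minus strand, with the match in capitals.
*Ezr* 3′UTR: tgatttttATGAAGGatccatctctg

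*Msn*, *Rdx* and *Nf2* held no such match in their longest annotated 3′UTR, of 1918, 2258 and 3155 bases. The shares of genes of like 3′UTR length with a match were 15.5%, 18.5% and 25.0%. Of the 3155 bases in the longest 3′UTR of *Nf2*, 780 are coding in its reference transcript, whose own 3′UTR of 2378 bases held no match either. With the shorter word for bases 2 to 7, *Rdx* held 2 matches, *Ezr* 2, and *Msn* and *Nf2* 0, where 32.4% of all genes held one. Among genes of like 3′UTR length the share with this shorter word was 56.8% for *Rdx*, 36.7% for *Ezr*, 51.3% for *Msn* and 68.9% for *Nf2*.

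The coding sequences were searched after the 3′UTR results were seen. *Msn*, *Ezr* and *Rdx* each held 1 match to bases 2 to 8 at the same place, bases 913 to 919 of the coding sequence, which begin codon 305. Over 22594 coding sequences, 18.8% held a match. The share was 21.6% to 22.1% among those 0.8 to 1.25 times as long as that of one of the 3 genes. The 3 windows below are shown because their positions coincide. *Msn* is at chrX:93355536-93355561 (plus strand, exon 8 of 13), *Ezr* at chr17:6947068-6947093 (minus strand, exon 8 of 13) and *Rdx* at chr9:51877829-51877854 (plus strand, exon 9 of 14), all on NCBIM37. The capitals mark the match.
*Msn* coding: tgcagcagATGAAGGcccaggctcgg
*Ezr* coding: tgcagcagATGAAGGcccaggctcgg
*Rdx* coding: tacagcagATGAAGGctcaggcccgg

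The windows of *Msn* and *Ezr* were identical over all 26 bases, and that of *Rdx* differed from each by 3 bases. The stretch is nearly the same in the 3 genes, so their matches are not separate draws from the share of coding sequences with a match. The coding sequence of *Nf2* held no match, where 22.5% of coding sequences of like length held one. The coding matches of *Msn*, *Ezr* and *Rdx* were followed by a C, and none of the 4 coding sequences held the match followed by an A. A match is a description of letters, and whether *miR-205* binds at any of these places was not tested here. The paper captured bound sites of miRNAs by ligation to their targets (CLEAR-CLIP). Its list of *miR-205*-bound genes of the actin cytoskeleton and cell adhesion names none of the 4 genes. That list covers those categories only.

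The C-terminal threonine that is phosphorylated in active ezrin, radixin and moesin was found by its surrounding residues, once in each protein. It was residue 567 of 586 in ezrin, 564 of 583 in radixin and 558 of 577 in moesin, in each case followed by 19 residues. The codons around it are printed from GENCODE vM1, with the threonine codon in capitals at NCBIM37 chr17:6943712-6943714 (*Ezr*), chr9:51894522-51894524 (*Rdx*) and chrX:93361911-93361913 (*Msn*), each in the last exon of its transcript.
*Ezr* threonine: gacaagtataagACGctgcggcaaatc
*Rdx* threonine: gataagtacaagACCcttcggcagatt
*Msn* threonine: gacaaatacaagACCctgcgccagatc

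Merlin did not hold this run of residues, although a threonine, residue 577 of 596, aligned to that of the other 3 proteins. Merlin is known to be controlled instead at a serine that the kinase PAK phosphorylates. It was found at residue 518, in exon 14 of 16 at NCBIM37 chr11:4684459-4684461, and its codon is in capitals.
*Nf2* serine: atgaagcgacttTCCatggagatagag

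Across whole proteins, translated from the annotated coding sequences, moesin and radixin were the closest pair, with 81.8% of 577 aligned residues identical. Ezrin matched radixin at 76.3% and moesin at 73.8%. Merlin stood apart, with 46.4% identity to moesin, 46.6% to ezrin and 47.4% to radixin. In the first 300 residues of the first-named protein of each pair, which hold most of the FERM domain, the 3 relatives were 84.7% to 89.3% identical to each other and 60.5% to 63.0% identical to merlin. In the rest of the protein, identity to merlin was 28.3% to 31.2%, against 62.0% to 73.6% among the other 3. Identity was thus higher in the first part of the protein for all 6 pairs.

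**Figure D1:**
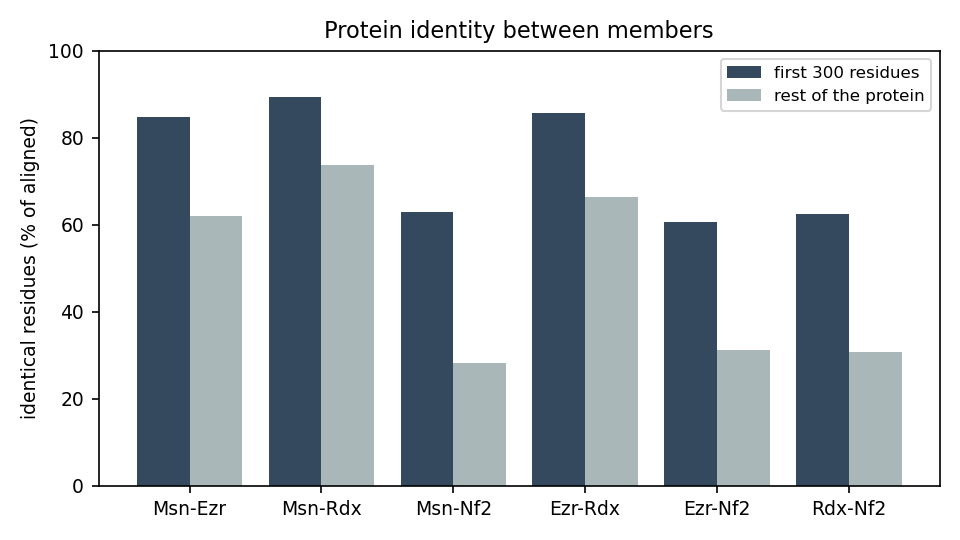
Identical residues as a percentage of aligned residues (vertical axis) for each pair of members (horizontal axis), in the first 300 residues (dark bars) and in the rest of the protein (light bars). The 3 pairs with Nf2 reach 60.5% to 63.0% in the first part and at most 31.2% in the rest, below every pair without it.

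These sequence likenesses bear on how reads can be assigned. The 4 reference transcripts were searched against the NCBIM37 genome. No match of at least 150 bases, the length of 1 read, outside the gene itself reached 95% identity. Identity was averaged over each whole match, so stretches of higher identity within a longer match were not looked for. The longest such match was to *Ezr*, a stretch of 2579 aligned bases on chromosome 8 (5079205 to 5081675) at 83.2% identity, with no annotated gene. Best identities elsewhere were 86.2% for *Msn* and for *Ezr*, 80.1% for *Rdx* and 79.4% for *Nf2*. The 3′ end of *Ezr* overlaps that of *Sytl3*, on the other strand, by 4 bases, and the small RNA gene *SCARNA3* lies within *Msn* on the other strand over 136 bases. The strand setting of the authors' counting is not given in the sources used here.

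Among the 4 members, *Ezr* had the highest mean normalized count in HF-SCs, 11137, followed by *Msn* with 6991, *Rdx* with 3009 and *Nf2* with 927, each the authors' mean over the 4 libraries. *Ezr* ranked 134 and *Msn* 268 of 17044 genes with a mean above 0, *Rdx* ranked 763 and *Nf2* 2637. All 4 thus lay in the upper part of the distribution, from percentile 84.5 for *Nf2* to 99.2 for *Ezr*. In a bulk library, fewer cells that express a gene and less of its RNA per cell cannot be told apart.

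Counting error was small at these depths. Genes with a single read in 1 library share 4 values of the mean, from which the relative depths of the 4 libraries were 0.716, 0.966, 1.18 and 1.24, and all 2459 means below 2 were whole-read sums of these within a tolerance of 1e-06. *Ezr* therefore rested on 31911 to 55087 counted reads or read pairs in all, and *Nf2* on 2657 to 4587. The counting SD of the mean was at most 62.3 for *Ezr*, 49.4 for *Msn*, 32.4 for *Rdx* and 17.99 for *Nf2*, or 0.560% to 1.94% of the mean. These bounds cover counting error only, and how far the 4 libraries differed in each gene could not be read from a pooled mean.

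Since longer transcripts collect more reads, the genes were compared with each other per kilobase of merged exons. On this scale *Ezr* had a level of 3385, *Msn* 1105, *Rdx* 622 and *Nf2* 136, each as mean normalized count per kilobase. The coding length of *Rdx* used for levels, 1989 bases, is that of its longest coding sequence, while its reference transcript codes with 1752. The order was the same as for the means. It was also the same with the longest transcript, with the coding length and with the merged exons of protein-coding transcripts, an alternative added after the values were seen. *Ezr* was thus the leading member under every length tried, and the gaps exceeded counting error throughout, while the spread between libraries remains unknown.

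**Figure D2:**
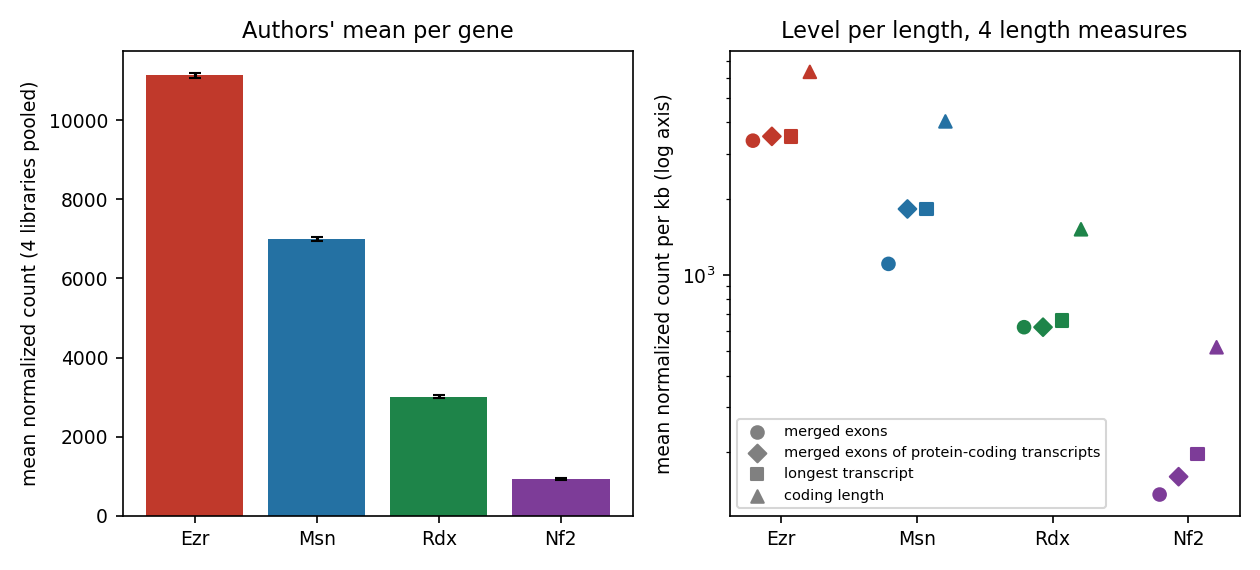
Left, authors' mean normalized count of each member pooled over the 4 libraries (vertical axis from 0), with error bars for the largest possible counting SD. Right, mean normalized count per kilobase on a log axis, with 1 symbol for each of the 4 length measures. Ezr is highest and Nf2 lowest in both panels and under every length.

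The distance between *Ezr* and *Msn* depended on the length used. Per kilobase of merged exons the level of *Ezr* was 3.06 times that of *Msn*, whose merged exons span 6327 bases because they include non-coding transcripts. Per kilobase of the longest transcript, 3842 bases for *Msn*, the ratio was 1.93, and per kilobase of coding sequence 1.57. Of the summed level of *Ezr*, *Msn* and *Rdx*, *Ezr* made up 66.2% by merged exons, 58.7% by the longest transcript and 53.3% by coding length. *Msn* made up 21.6%, 30.3% and 34.0% in the same order. The share of *Rdx* moved little, at 12.2%, 10.99% and 12.7%. *Ezr* thus held the largest share of the 3 by each of these lengths.

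Merlin mRNA was scarcer than that of its relatives. The summed level of *Ezr*, *Msn* and *Rdx* per kilobase of merged exons, 5112, was 37.6 times that of *Nf2*. The ratio was 30.5 by the longest transcript and 22.9 by coding length. *Rdx*, the nearest of the 3, was 4.57 times as high as *Nf2* by merged exons and 2.92 times by coding length.

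**Figure D3:**
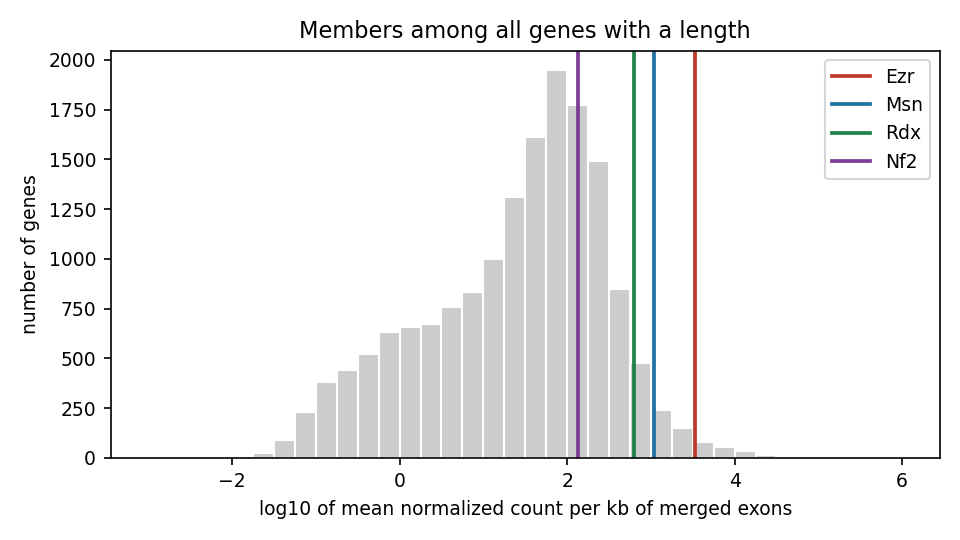
Number of genes (vertical axis) by the log10 of mean normalized count per kilobase of merged exons (horizontal axis), for the 16270 genes with a length, with a vertical line for each member. Ezr, Msn and Rdx lie in the right tail, at percentile 94.2 or higher, and Nf2 lies at percentile 74.4.

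The FERM domain occurs in many other proteins of the cell cortex and of signaling, and 34 further FERM genes were listed. All 34 had a mean above 0, and 31 (91.2%) had a mean over 50, as did 60.7% of all genes with a mean above 0. Per kilobase of merged exons their median was 106.5, against 39.5 over all 16270 genes with a length. None of the 34 exceeded *Ezr* or *Msn*. Only *Jak1* in this list, a kinase of cytokine receptors, exceeded *Rdx*, at 708 per kilobase, and by coding length it did not, with 1479 against 1513. Talin 1 (*Tln1*), which couples integrins to actin, followed *Rdx* at 422 by merged exons. The phosphatase gene *Ptpn14*, which acts on YAP, had 337. By coding length the order of these genes was reversed, with 1093 for *Ptpn14* and 542 for *Tln1*. *Nf2* was 18 of the 38 genes in order by merged exons, with 14 of the 34 above it. By coding length 8 of the 34 were above it. The neighbours of *Nf2* by merged exons were picked for their place after the values were seen. They were *Farp1* at 150 and the kindlin gene *Fermt2* at 136, which was within the counting SD of *Nf2*. By coding length *Farp1* had 263 and *Fermt2* 249, against 518 for *Nf2*, so these neighbours depended on the length used. At the low end *Frmd5* had 0.0358 per kilobase, from a mean of 0.259.

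**Figure D4:**
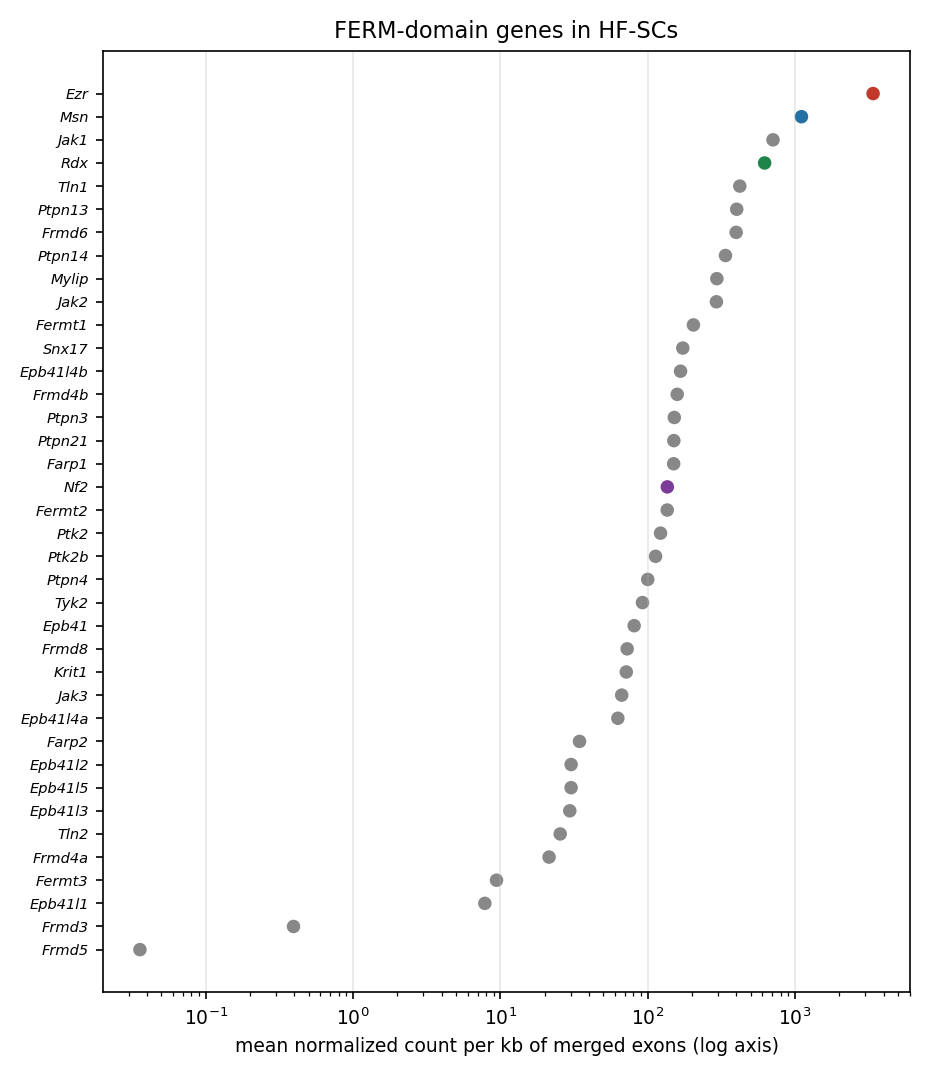
Mean normalized count per kilobase of merged exons (horizontal log axis) for the 4 members in color and 34 other FERM-domain genes in grey, ordered by level. Ezr and Msn head the order at 3385 and 1105, Rdx is below Jak1 at 622, and Nf2 lies in the middle at 136.

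Membrane partners of ezrin, radixin and moesin differed widely in level. Of the 16 listed, 15 had a mean above 0, and their median per kilobase was 21.4. A mean over 50 was seen for 8, or 53.3% of those above 0, against 60.7% of all genes above 0. *Cd44*, the hyaluronan receptor whose tail binds the FERM domain, had a mean of 13051 and a level of 1905 per kilobase. The adhesion receptor *Icam1* had 2272 per kilobase and the proteoglycan gene *Cspg4* had 731. *Slc9a3r1*, which encodes the scaffold EBP50 that ezrin holds under the membrane, had 298, between *Rdx* and *Nf2*. Partners known from leukocytes and endothelium, picked after their values were seen, had means of 2.94 for *Icam2*, 6.77 for *Spn* (CD43), 36.2 for *Selplg* and 42.9 for *Podxl*, while *Icam1*, also known from both, had 5770. *Slc4a1*, the anion exchanger of red cells, was listed at 0. *Icam1* and *Cd44* were the only listed partners above *Msn* per kilobase of merged exons, and by coding length only *Cd44* was. No listed partner was above *Ezr* by either length.

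The kinases *Slk* and *Stk10* (LOK), close relatives known for phosphorylating the C-terminal threonine, differed in level. *Slk* had a mean of 2794 and *Stk10* a mean of 156. Per kilobase of merged exons these were 337 and 29.99, so that *Slk* lay between *Rdx* and *Nf2*, and *Stk10* below *Nf2*. By coding length *Slk* had 755 and *Stk10* 53.6 per kilobase, in the same places of the order.

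For merlin, 23 genes of the Hippo pathway and its partners were listed, and each had a mean over 200, as did 7054 of all 17044 genes above 0. Their median per kilobase was 130, close to the 136 of *Nf2*, and 11 of the 23 exceeded *Nf2*. By coding length the median was 531, against 518 for *Nf2*, and 12 of the 23 exceeded it. No gene of this list exceeded *Rdx* by merged exons, while *Yap1* did by coding length. *Map4k4*, a kinase upstream of LATS, had the highest level of the list, 619 per kilobase of merged exons. *Yap1*, the transcriptional co-activator that the pathway restrains, had the next highest mean, 2781. Per kilobase of merged exons *Yap1* was 4 in order at 300.4, behind *Frmd6* at 398 and *Wwtr1* at 365. By coding length *Yap1* had the highest level of the list, 1896, and *Map4k4* had 973, so the order depended on the length used. The kinase gene *Taok1* had 192. *Lats1* and *Lats2*, the kinases that merlin recruits to the membrane, had 130 and 101, and the lowest mean was that of *Stk3* (MST2), at 202. The medians of these lists describe genes chosen by hand, and the medians say nothing particular about the lists.

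**Figure D5:**
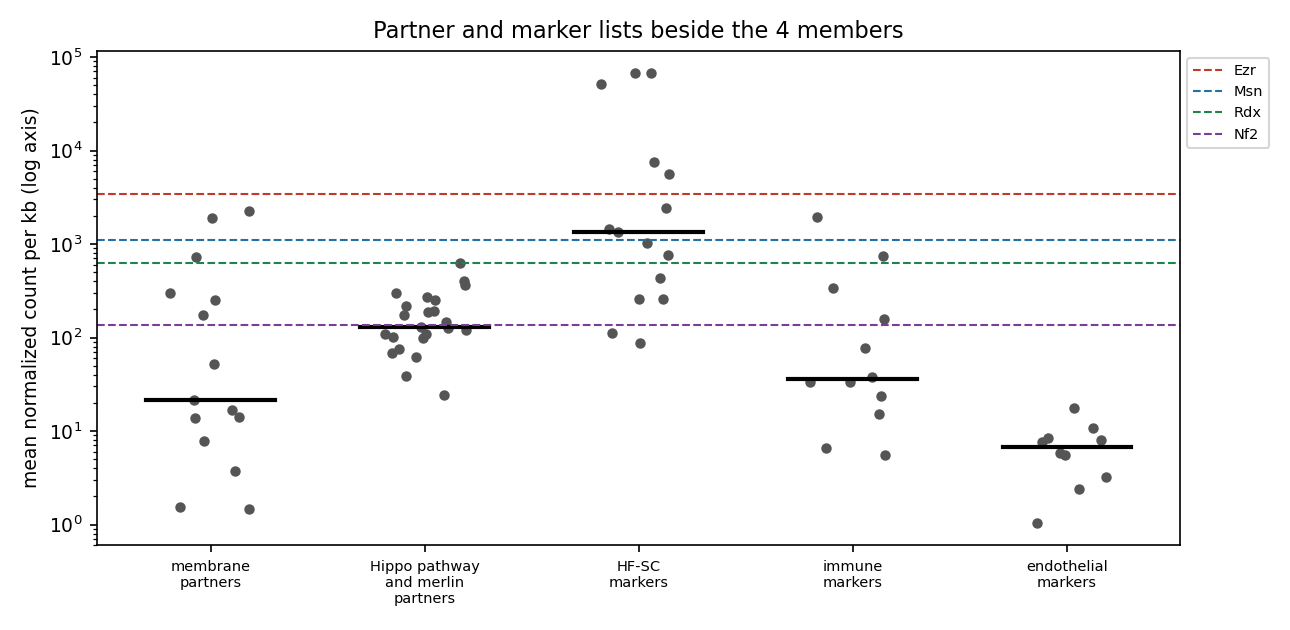
Mean normalized count per kilobase of merged exons (vertical log axis) for the genes of 2 partner lists and 3 marker lists, 1 point per gene with the list median as a black bar, and the 4 members as dashed lines. HF-SC keratins lie far above Ezr, the median of the Hippo list (130) lies near the Nf2 line (136), and every endothelial marker lies below Nf2.

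The levels of 15 HF-SC markers were read beside those of other cell types. All 15 had a mean above 0, as had every gene of the other marker lists. A mean above 0 therefore does not check the HF-SC label. The highest were *Krt5* with 146090, *Krt15* with 119883 and *Krt14* with 90971, all keratins of basal and bulge cells. The sort itself chose cells by CD34, α6 integrin and the keratin 14 reporter, so their genes do not check the label either. *Cd34*, a surface marker used in the sort, had 14575, and the lowest was *Fgf18* with 134. Per kilobase of merged exons the list summed to 206763, of which *Krt15* held 67049, *Krt5* 66708 and *Krt14* 51747. Percentages of this sum are therefore set mostly by these keratins. The median per kilobase was 1343 for the HF-SC list, 6.67 for endothelial and 35.7 for immune markers. Endothelial markers, whose cells are known for moesin, had means of 5.63 (*Emcn*) to 51.3 (*Tek*) for all 10, with *Pecam1* at 36.4 and *Plvap* at 35.6, and their summed level per kilobase was 0.0341% of that of the HF-SC list. Immune markers, from cells that also carry moesin, had means from 9.52 (*Cd3e*) to 2744 (*Cd74*), with *H2-Ab1* at 1209, *Lyz2* at 449 and the pan-leukocyte gene *Ptprc*, added after its value was seen, at 87.6, and their summed level was 1.65% of the HF-SC list. Per kilobase of merged exons, *Cd74* at 1946 was the only one of the 12 immune markers above *Msn*, and by coding length none was. *Ptprc* had 15.1 per kilobase of merged exons. The sort was for cells high in H2BGFP, α6 integrin and CD34, and the part of endothelial and immune cells in the level of *Msn* was not tested.

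Lists for other cell types of the skin were also above 0, and the part of such cells in these values was not tested. Fibroblast markers summed to 1.16% of the HF-SC list, led by *Col1a1*, *Col1a2* and *Col3a1* with means of 5186, 4699 and 3397, and were lowest at *Dpt* with 34.8. Suprabasal genes summed to 6.63%, with *Sbsn* at 10749, *Krt10* at 7246, *Calml3* at 4187 and *Ivl* at 116. Melanocyte genes summed to 0.364%, with *Mitf* at 2024, *Dct* at 498, *Pmel* at 219 and *Mlana* at 9.77. The median per kilobase of merged exons was 186 for fibroblast, 961 for suprabasal and 46.5 for melanocyte markers, against 1343 for the HF-SC list. The hairpin gene *Mir205* had a mean of 8.18 over the 4 libraries, which pools both groups and so does not check the induction.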

How the data were processed

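Bulk RNA-seq of sorted HF-SCs was made from 2 control and 2 *miR-205*-induced samples. Libraries came from a directional kit and were sequenced as read pairs of 150 nt. The submitters' processing notes name HISAT2 (2.1.0), SAMtools (1.3.1), HTSeq and DESeq2, which the authors used for alignment, file conversion, counting per gene and size factors. For the annotation and the strand setting of the counting, nothing was stated in the methods or labels. The labels give mm10 and the methods NCBI37/mm10 as the genome. The deposited mean normalized count is a signal, the gene counts divided by size factors and averaged by the authors over the 4 libraries. The deposited table also holds 5 columns of the authors' own comparison (log2 fold change, standard error, statistic, p-value and adjusted p), which were not used, so no test was run. No absolute depth per library is known.

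Members and lists were chosen with earlier results of these data known. Named genes are the members, the 3 with the highest mean and the lowest of each list, list genes behind a count of 5 or fewer, partners whose role is background (*Cd44*, *Slc9a3r1*, *Slk*, *Stk10*, *Lats1*, *Lats2*, *Yap1*, *Cd34*), and genes whose span overlaps a member. Others are marked where named. One list and one aligned sequence are not reported here. Of the genes with a mean above 0, 16270 (95.5%) were given a length from GENCODE vM1 on NCBIM37, by symbol or RefSeq synonym, and list genes under older names in the table were matched in the same way. A percentile is the share of genes with a lower value. Sequence features other than 3′UTR matches were read from the transcript of the lowest number for each gene. The 3′UTR matches were searched in the longest annotated 3′UTR of each gene. Proteins were aligned globally (BLOSUM62, gap opening 11, extension 1, end gaps 0.5), and copies were searched with BLAST 2.17.0 (dc-megablast, E-value 1e-20). Alternatives were other minimum means, other lengths, gaps counted in the identity, and other words and UTRs. The estimate of relative depth, the counting bound and the word search were tested on simulated data, and the alignment on moesin against itself. Versions were biopython 1.88, matplotlib 3.10.9, pandas 2.3.3, numpy 2.4.6, scipy 1.17.1 and Python 3.11.15.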

Additional observations from a re-analysis of the deposited data

How the results depend on the processing

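No paired analysis was possible because the deposited mean pools the 4 libraries, and for the same reason leaving out each library and the replicate block were not run. Among genes with a mean over 50, the percentiles of the means were 98.7 for *Ezr*, 97.4 for *Msn*, 92.6 for *Rdx* and 74.5 for *Nf2*, and over 200 they were 98.1, 96.2, 89.2 and 62.6, because fewer genes were ranked. Percentiles per kilobase were 98.9, 96.9, 94.2 and 74.4 by merged exons. They were 97.7, 93.6 and 77.9 for *Msn*, *Rdx* and *Nf2* by the longest transcript, 98.3, 97.3, 93.0 and 80.5 for *Ezr*, *Msn*, *Rdx* and *Nf2* by coding length, and 98.7, 97.7, 93.1 and 73.7 by protein-coding transcripts, a length added after the data were seen.

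Shares of *Ezr*, *Msn* and *Rdx* in their sum were 58.7%, 30.3% and 10.99% by the longest transcript, 53.3%, 34.0% and 12.7% by coding length, and 59.0%, 30.5% and 10.4% by protein-coding transcripts. Percentiles of the list medians went from 69.7 to 56.3 for FERM genes, from 40.8 to 78.4 for membrane partners and from 73.7 to 58.2 for Hippo genes when means of 50 or less were left out of both the lists and the ranking. By coding length the marker sums, in percent of the HF-SC list, were 0.0511 endothelial, 2.28 immune, 1.64 fibroblast, 7.80 suprabasal and 0.675 melanocyte.

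With the shorter word, *Ezr* had 2 matches and *Rdx* 2. In the coding sequence, a search added after the data were seen, *Msn*, *Ezr* and *Rdx* each had 1 match to bases 2 to 8. *Nf2* had 0 there, and none of the members held the longer word in its coding sequence. Counting the gaps changed no identity by more than its 95% Wilson interval.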
